A study of Mus musculus with 27 samples.

Results

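Glis1 was followed from its promoter through capture Hi-C contact matrices of mouse testis. The viewpoint was the 10 kb bin that holds the transcription start of Glis1 plus 1 bin either side, chr4:107420001-107450000 in GRCm38 (mm10). It is 1 gene of the 6 in the authors' cis expression table, and its 3 bins belong to a core of 82 intact bins that runs over 850 kb, chr4:107110001-107960000. Contacts of this window were counted with the 79 other bins of the core and compared with those of an equal window at the 3′ end of the gene, chr4:107620001-107650000. The viewpoint was named by gene and position, not by a measured value.

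The libraries were 3 from wild-type mice and 3 from mice homozygous for B396.BOS, in which CRISPR-Cas9 removed a TAD boundary. TADs (topologically associating domains) are stretches of chromosome that contact themselves more than their neighbours. RNA-seq behind the expression table came from 9 testis samples, 3 each of wild-type, heterozygous and homozygous genotype. Strain and age were not given in the sources used here. Nothing states that the 3 samples of a genotype came from separate mice, so p-values measure the spread between these samples only. Each library averages over all cell types of the testis, and no per-library expression was analysed here, so the tissue label was not checked against marker genes. Capture Hi-C ligates DNA fragments that are neighbours in the nucleus and pulls out the products of chosen regions with probes.

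Glis1 encodes a Krüppel-type zinc finger transcription factor related to the GLI and ZIC proteins, and it is known for promoting reprogramming of somatic cells to pluripotency. The other genes of the region have separate roles. Dmrtb1 (also called Dmrt6) encodes a DM-domain factor that acts in spermatogonia, and Lrp8 encodes a receptor for reelin and selenoprotein P. Boundaries between TADs are often bound by CTCF and limit contacts between promoters on one side and elements on the other.

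Glis1 lies on the plus strand at chr4:107426636-107635061 by RefSeq, with the start used here at 107434719. The window also covers the outermost RefSeq start, in its left bin, and the predicted gene Gm46866. The start of Lrp8, at 107802885, lies right of the deletion and is the nearest protein-coding start on that side. The promoter sequences are shown because the viewpoint is the Glis1 promoter and the bin where its contacts changed most lies in Lrp8. Each runs from 250 bases before the start to 50 from the start onwards, 5′ to 3′, on the plus strand, from RefSeq (GRCm38.p6), at chr4:107434469-107434768 and chr4:107802635-107802934. Capitals mark GGGCGG, the core of a GC box, on either strand.
Glis1 promoter: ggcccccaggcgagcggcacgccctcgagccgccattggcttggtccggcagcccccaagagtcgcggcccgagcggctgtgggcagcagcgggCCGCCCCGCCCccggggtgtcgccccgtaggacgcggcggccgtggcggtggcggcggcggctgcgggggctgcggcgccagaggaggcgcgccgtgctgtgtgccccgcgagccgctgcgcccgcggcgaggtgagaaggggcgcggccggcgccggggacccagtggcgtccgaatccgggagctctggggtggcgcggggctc
Lrp8 promoter: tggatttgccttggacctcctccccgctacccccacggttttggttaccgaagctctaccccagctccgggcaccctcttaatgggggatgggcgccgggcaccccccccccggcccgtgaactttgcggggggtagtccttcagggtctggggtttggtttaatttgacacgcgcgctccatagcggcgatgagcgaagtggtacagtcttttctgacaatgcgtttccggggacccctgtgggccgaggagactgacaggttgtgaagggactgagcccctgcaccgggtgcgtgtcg
The Glis1 promoter held 2 GGGCGG matches, both on the minus strand and overlapping by a base, and the Lrp8 promoter held 0. Of 32841 RefSeq mouse promoters of this length, 35.7% held at least 1 match on either strand. The Glis1 promoter had 47 CpG dinucleotides, more than 98.6% of those promoters, whose median was 7, and a GC content of 81.3%. The Lrp8 promoter had 21 CpG dinucleotides and a GC content of 62.7%.

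The libraries held 5669898 to 7794641 contacts each. The bins chr4:107720001-107740000 were nearly empty in homozygotes (0.171% and 0.435% of the wild-type share of contacts), and the bin on their left, from 107710001, kept 74.8%. The coverage lost from these 3 bins corresponds to 22.5 kb of sequence if contacts are spread evenly along each bin. This estimate is the missing length used below. The 3 bins, called the deleted span below, were left out of every comparison. Replicate 2 stood apart in both genotypes. The Glis1 promoter made 44.3% and 42.8% of its core contacts within the gene in the replicate 2 libraries of wild type and homozygotes, against 38.9% to 40.3% in the other 4 libraries. Wild-type replicate 2 held 1195545 contacts in the captured region of chromosome 4 and 1400742 in that of chromosome 2. Homozygous replicate 2 held 1261808 and 1527726. The other 4 libraries held 676540 to 950768 and 1193751 to 1567348. Values without replicate 2 of both genotypes are given beside the main results, and with 2 libraries a genotype they carry no test of their own unless one is named.

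The Glis1 promoter made more of its contacts beyond the deleted span in homozygotes than in wild type. Bins right of the span, 107740001-107960000, took 10.9%, 10.4% and 10.2% of the window's core contacts in wild-type replicates 1 to 3. In homozygous replicates 1 to 3 they took 12.5%, 13.3% and 12.3%. Every homozygous library lay above every wild-type library. The means were 10.5% ± 0.339 and 12.7% ± 0.511 (SD, n = 3 each), a difference of 2.18 points that is larger than either SD (two-sided exact permutation test, p = 0.1, the smallest that 3 against 3 libraries allow). Without replicate 2 of both genotypes the difference was 1.84 points. Behind these shares stand 2148 to 3441 contacts in each wild-type library and 2384 to 5022 in each homozygous one.

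The 3 zones on the promoter's own side changed by less than the spread between libraries. Bins upstream of the window, which hold the nuclear pore gene Ndc1, the deiodinase gene Dio1 and the genes to their left, took 42.5% ± 2.66 in wild type, against 41.2% ± 2.56 in homozygotes (SD, n = 3 each; exact permutation p = 0.5). The body and 3′ end of Glis1 took 41.2% ± 2.78 and 40.5% ± 2.05 (SD, n = 3 each; exact permutation p = 0.6). The stretch from the gene to the span, which holds Dmrtb1, took 5.70% ± 0.127 and 5.61% ± 0.176 (SD, n = 3 each; exact permutation p = 0.6). The shares of a library sum to a whole, so a rise in 1 zone lowers the others together. With libraries paired by replicate number, the upstream share was lower in each homozygous library, by -1.43, -1.27 and -1.47 points (exact sign-flip p = 0.25, the smallest for 3 pairs). The shares of the gene and of the stretch up to the span were also lower in 3 of 3 pairs. The bin of the Dmrtb1 start, 107680001-107690000, had 205, 327 and 256 contacts with the promoter window in wild type, against 194, 388 and 223 in homozygotes, and its genotypes overlapped once distance was taken into account.

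**Figure D1:**
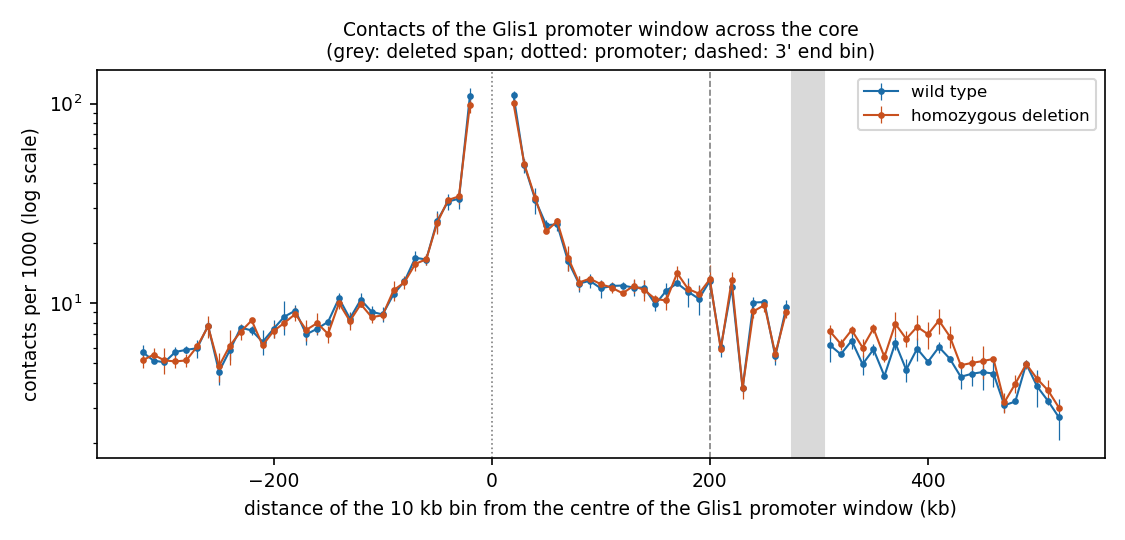
Contacts of the Glis1 promoter window with each 10 kb bin of the core, per 1000 core contacts of the window (log scale), against distance from the window's centre; points are means of 3 libraries and bars are SD. The wild-type and homozygous lines lie close together left of the deleted span (grey), and the homozygous line lies higher on most of its right.

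Contacts fall with distance, so the contacts of the window with the right side were divided by the number expected at the same distances within the left and within the right flank of the core. The right flank holds 22 bins of 10 kb and the promoter window lies 290 kb from it. The promoter's expected number therefore came from pairs of the left flank alone, and that of the 3′ end from both flanks at its nearer distances. The left flank holds 60 bins, so the expected numbers at the farthest distances rest on few bin pairs. A log2 observed over expected of 0 means as many contacts as those pairs, which do not cross the span. The Glis1 promoter was at 0.35, 0.26 and 0.26 in wild type, against 0.53, 0.69 and 0.51 in homozygotes. All 3 homozygous libraries exceeded all 3 wild-type libraries, and all 6 values were above 0. The mean rose from 0.29 ± 0.05 to 0.57 ± 0.10 (SD, n = 3 each), a difference of 0.29 or 1.22-fold (exact permutation p = 0.1). Without replicate 2 of both genotypes it was 0.215. Same-numbered libraries differed by 0.18, 0.44 and 0.25, with replicate 2 the highest.

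The deletion brings its flanks closer, so homozygous distances across the span were also shortened. The promoter's difference was 0.24 after shortening by the missing 22.5 kb and 0.23 after shortening by all 3 bins of the span. Every homozygous library still lay above every wild-type library in both (exact permutation p = 0.1).

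At the 3′ end of Glis1, 60 kb from the span where the promoter window is 260 kb away, the right side took 15.9%, 14.8% and 15.4% of contacts in wild type, against 18.4%, 17.7% and 18.6% in homozygotes. The genotypes did not overlap, and the difference was 2.88 points (exact permutation p = 0.1), or 2.82 without replicate 2 of both genotypes. Observed over expected was -0.28, -0.13 and -0.29 in wild type, against -0.03, 0.18 and 0.06 in homozygotes, a difference of 0.30 or 1.23-fold (exact permutation p = 0.1), or 0.29 without replicate 2. Shortening by the missing 22.5 kb left 0.13 of it (exact permutation p = 0.2), and shortening by 3 bins left 0.07, less than the larger SD of 0.10 (exact permutation p = 0.5).

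**Figure D2:**
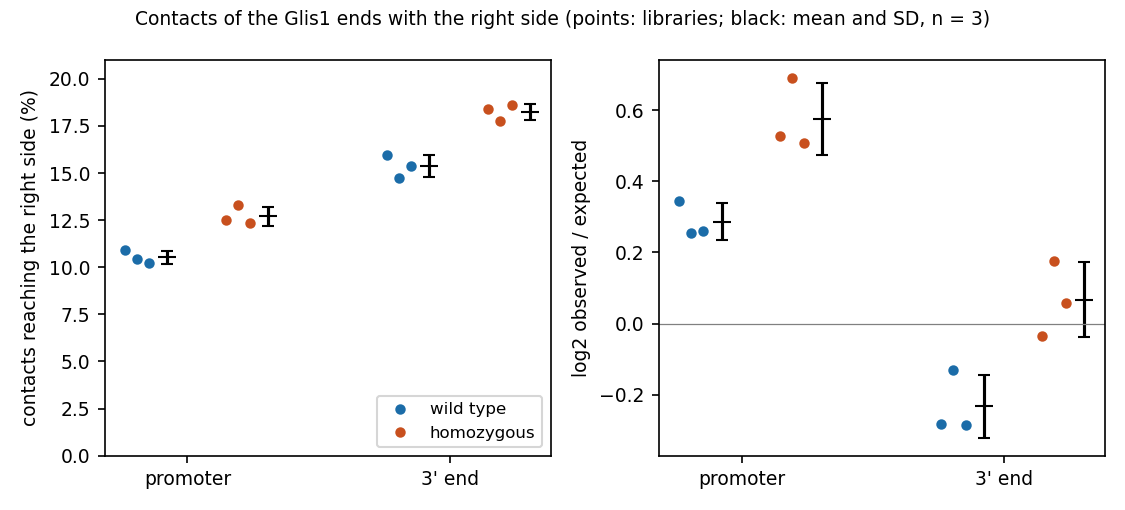
Share of core contacts reaching the right side (left panel, %) and log2 observed over expected contacts with the right side (right panel) for the windows at both ends of Glis1; points are libraries and black marks are mean and SD of 3. At each end the homozygous points lie above the wild-type points at reference distances.

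The 2 ends of the gene were compared directly. At reference distances the promoter's change exceeded that of the 3′ end by -0.01, with 3 paired values of -0.07, 0.13 and -0.09 (exact permutation p = 0.9). After shortening by the missing length the promoter's change was the larger by 0.11, within the larger SD of 0.12 (exact permutation p = 0.2). After shortening by 3 bins it was larger by 0.16, past that SD (exact permutation p = 0.2). A different response of the 2 ends was thus not detected at reference distances, nor after shortening by the missing length, the loss seen in coverage. The sign of the difference depended on the distance used.

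The level of the 2 ends differed in every library, whatever the genotype. The log2 observed over expected of the promoter was above that of the 3′ end by 0.52 ± 0.12 in wild type and 0.51 ± 0.06 in homozygotes (SD, n = 3 each), in 6 of 6 libraries. A two-sided exact sign-flip test over the 6 libraries, chosen after the values were seen, gave p = 0.0312, the smallest it can give. With all 6 values already seen to have the same sign, the test could give no other result. Nothing is read from it. The 2 ends drew their expected numbers from different pairs of the flanks. With the expectation of both from chromosome 2, the gap was 0.49 ± 0.08 in wild type and 0.46 ± 0.06 in homozygotes (SD, n = 3 each), in 6 of 6 libraries. Balancing the matrices, which evens out the total contacts of each bin, reduced the gap to 0.17 ± 0.06 in wild type and 0.19 ± 0.10 in homozygotes (SD, n = 3 each), again in 6 of 6 libraries. Among 33 windows of 30 kb left of the span, in steps of 10 kb from 107360001, the wild-type value of the promoter window ranked 2 from the top. That of the 3′ end ranked 30. Neighbouring windows share bins, and windows farther left were not included.

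The same 33 windows show where Glis1 stands among its neighbours. At reference distances all 33 were higher in homozygotes, with a median difference of 0.31 and a range from 0.21 to 0.43, and the promoter window, at 0.29, ranked 21. After shortening by the missing length the median was 0.16, and the promoter ranked 11 with 0.24. Without replicate 2 of both genotypes the promoter's 0.215 ranked 30 at reference distances, and its 0.17 ranked 16 after shortening, where the median was 0.156. Windows from 107360001 to 107540000, which cover Ndc1 and the promoter-side part of Glis1, lay between 0.225 and 0.273 on that scale. The windows from 107520001 onwards, over the rest of Glis1 and Dmrtb1, lay between -0.007 and 0.162. On that scale the Glis1 promoter thus belonged to a run of windows with similar values, and no test set it apart from them. The run was read with the expectation from the flanks only. With that from chromosome 2 and the same shortening, the difference was 0.21 at the Glis1 promoter and 0.14 at the Ndc1 promoter.

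**Figure D3:**
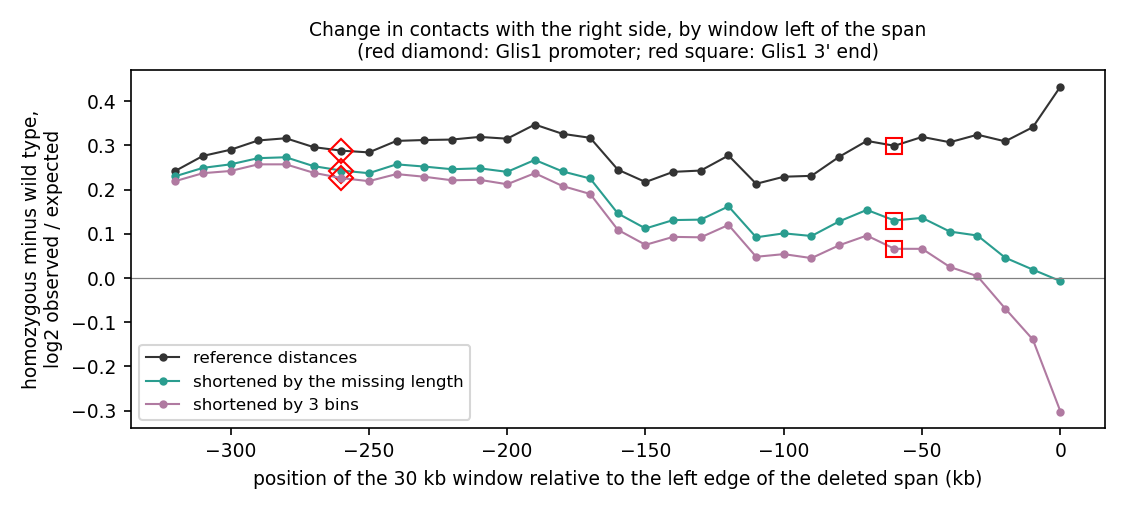
Homozygous minus wild-type log2 observed over expected contacts with the right side for 33 overlapping 30 kb windows, against their distance from the left edge of the deleted span (kb), under 3 assumptions on homozygous distances. The lines lie close together far from the span and spread near it; the Glis1 promoter (red diamond) is at 0.29, 0.24 and 0.23 and the 3′ end (red square) at 0.30, 0.13 and 0.07.

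Of 3 zones on the right side, the one over Lrp8 had the largest difference for the promoter; the zones were not tested against each other. For all bins that Lrp8 touches, 107800001-107880000, the last of which also holds the start of Magoh, observed over expected was 0.43, 0.51 and 0.38 in wild type, against 0.68, 1.03 and 0.71 in homozygotes. The genotypes did not overlap, and the difference was 0.37, or 0.35 with the missing length and 0.34 with 3 bins taken from the distances (exact permutation p = 0.1 for each). Homozygous replicate 2 was the highest, and the same-numbered differences were 0.25, 0.52 and 0.34. The difference was 0.296 when replicate 2 of both genotypes was left out, or 0.283 with the missing length taken out. The 3′ end of Glis1 rose by 0.32 over the same bins (exact permutation p = 0.1) and by 0.19 after shortening, where the genotypes overlapped (exact permutation p = 0.3). Without replicate 2 those values were 0.34 and 0.214, the latter without overlap. Over Lrp8 the promoter's change exceeded that of the 3′ end by 0.05 at reference distances (exact permutation p = 0.7) and by 0.16 after shortening, where the genotypes were apart (exact permutation p = 0.1). The size of that comparison, and at reference distances its sign, depended on replicate 2. Without it in both genotypes the 2 values were -0.0445 and 0.0685, both without overlap of the genotypes. Without wild-type replicate 2 alone they were -0.0128, with overlap, and 0.0952, without overlap. A larger change of the promoter over Lrp8 was thus not established, and the zones were drawn after earlier results were known.

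Between the span and Lrp8, in 107740001-107800000 with the non-coding RNA genes Gm12907, 4933424M12Rik and Lrp8os3, the promoter's difference was 0.27, and 0.18 after shortening by the missing length (exact permutation p = 0.1 for each). Shortening by 3 bins left 0.15, with overlapping genotypes (exact permutation p = 0.2). These 3 values were 0.1995, 0.0975 and 0.06 without replicate 2 of both genotypes. At the 3′ end the difference there was 0.40, and 0.17 after shortening (exact permutation p = 0.1 for each), or 0.393 and 0.1555 without replicate 2. From 107880001 to the edge of the core, which holds Czib, Cpt2 (carnitine palmitoyltransferase of mitochondria) and most of Magoh (a core protein of the exon junction complex), the promoter's difference was 0.18. After shortening it was 0.15, with overlapping genotypes (exact permutation p = 0.2). These were 0.12 and 0.0915 without replicate 2 of both genotypes, and without wild-type replicate 2 alone 0.1082 and 0.0778. At the 3′ end it was 0.09 at reference distances and -0.03 after shortening, with overlapping genotypes in both (exact permutation p = 0.4 and 1.0).

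Among single right bins, the mean was higher in homozygotes in 22 of 22 for the promoter and in 20 of 22 for the 3′ end. The median difference was 0.27 for each. In 12 of the promoter's 22 every homozygous library lay above every wild-type library. Among all 726 pairs of a right bin with 1 of the 33 windows above, 41.2% did so. After shortening by the missing length 8 of the promoter's 22 did, against 23.1% of all pairs. In 0 of the promoter's 22 did every homozygous library lie below, where 0.275% of all pairs did so at reference distances and 1.24% after shortening. Windows starting left of 107360001 were not among the 33. Neither flank holds pairs as far apart as those windows are from the right edge of the core. At the 3′ end 11 of 22 bins lay above and 1 below, or 3 and 1 after shortening. With replicate 2 of both genotypes left out, 13 of the promoter's 22 bins lay above and 0 below, or 10 and 0 after shortening. The shares over all pairs were then 62.1% above and 2.2% below, or 46.1% and 5.51% after shortening. Those counts of the promoter were near the shares over all pairs, and no count was tested against its share. On the promoter's own side the mean was higher in homozygotes in 26 of 57 bins, with a median difference of -0.01.

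The 5 right bins with the highest wild-type values for the promoter were 107840001, 107800001 and 107820001 in Lrp8 (0.67, 0.67 and 0.65), 107760001 in Gm12907 (0.59) and 107780001 in 4933424M12Rik (0.52). The lowest were 107950001 in 4930407G08Rik (-0.47), and 107900001 and 107910001 in Cpt2 (-0.28 and -0.20). The bin with the largest change, 107810001-107820000 in Lrp8, held 85, 177 and 108 contacts in wild type, against 117, 243 and 183 in homozygotes, and went from 0.25 ± 0.18 to 0.76 ± 0.15 (SD, n = 3 each). The next largest changes were 0.43 at 107830001, 0.43 at 107840001 and 0.41 at 107850001, all in Lrp8, and 0.38 at 107780001 in 4933424M12Rik. In each of these 5 bins the genotypes did not overlap. They were picked by the size of their change in the same libraries, which favours bins without overlap. Among all 22 right bins of the promoter, 12 were higher in homozygotes without overlap, as were 41.2% of the 726 pairs of a bin and a window. Nothing further was read from the lack of overlap in the 5 bins. The 5 differences were 0.616, 0.247, 0.32, 0.324 and 0.317 without replicate 2 of both genotypes.

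The bins that hold gene starts beyond the span were not tested against each other. The bin of the Lrp8 start, 107800001-107810000, held 124, 224 and 149 contacts with the Glis1 promoter in wild type, against 145, 346 and 173 in homozygotes. Its observed over expected went from 0.67 ± 0.13 to 0.99 ± 0.22 (SD, n = 3 each), without overlap at reference distances and with overlap after shortening. The bin of the Magoh start, 107870001-107880000, held 98, 148 and 97 contacts against 87, 202 and 129 and overlapped, as did the bin of the Czib start, 107880001-107890000, with 88, 122 and 137 against 112, 154 and 136. The bin of the Cpt2 start, 107920001-107930000, had the smallest difference of all right bins, 0.02, with 101, 168 and 119 contacts in wild type, against 99, 177 and 125 in homozygotes.

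**Figure D4:**
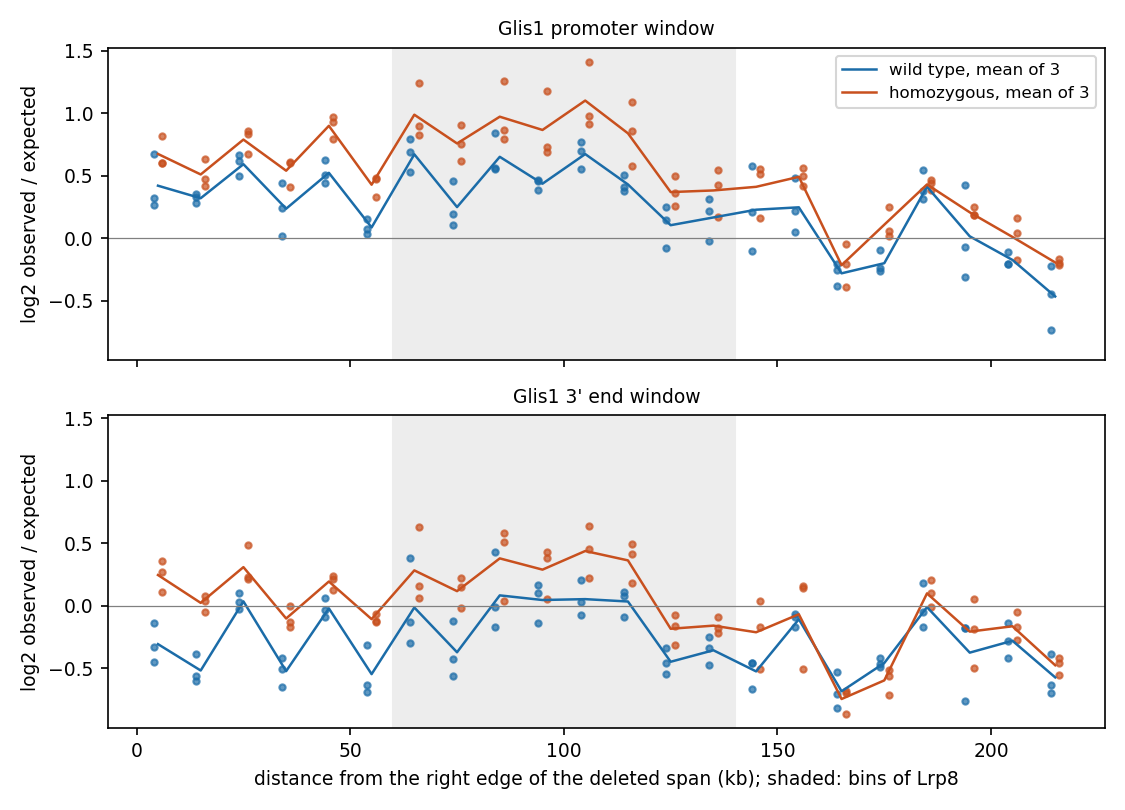
Log2 observed over expected contacts of the Glis1 promoter window (top) and 3′ end window (bottom) with each 10 kb bin right of the deleted span, at reference distances; points are libraries, lines are means of 3, and shading marks the bins of Lrp8. The promoter's homozygous line lies above its wild-type line in all 22 bins, by most at 0.51 in Lrp8 and by least at 0.02 in Cpt2.

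The quasi-likelihood test of edgeR was run on all pairs of 30 kb tiles of the core, on a grid that has the promoter window as 1 tile. Of the promoter's 28 tile pairs, 1 passed a Benjamini-Hochberg adjusted p of 0.05, against 3.94% of all 406 tile pairs called higher and 0.493% called lower, and 9.52% of the pairs across the span called higher. It joins the promoter window with 107810001-107840000 in Lrp8. It had 292, 567 and 380 contacts in wild type, against 367, 889 and 524 in homozygotes. Scaled to library size (CPM over the tested pairs) these were 1309, 1535 and 1339, against 1662, 2045 and 1780. No homozygous value fell into the wild-type range, and in log2 terms it rose by 0.39 with an SE of 0.10 (edgeR adjusted p = 0.0417). The call was lost without wild-type replicate 1, wild-type replicate 3, homozygous replicate 2 or homozygous replicate 3, where the pair was higher by 0.34, 0.36, 0.30 and 0.42 (edgeR adjusted p = 0.254, 0.222, 0.102 and 0.0542). Without homozygous replicate 3 the tiles on either side of it, from 107780001 and 107840001, were called instead (0.355 and 0.379, edgeR adjusted p = 0.044 each). The call was also lost with library sizes from chromosome 2 (0.50, edgeR adjusted p = 1) and with distances shortened by the missing length (0.33, edgeR adjusted p = 0.284). With chromosome 2 sizes 0.246% of all pairs were called higher. With the shortening 0% of all pairs, and 0% of those across the span, were called higher. The loss was thus not particular to this pair. DESeq2 called the same pair (0.38, DESeq2 adjusted p = 0.0494), among 2.22% of all pairs called higher. Pairs of 10 kb bins gave 0 calls for the promoter, where 0.181% of all such pairs were called higher and 0.0301% lower. With library sizes from the captured region of chromosome 4, 5 promoter pairs were called and 15% of all pairs were called higher. Without replicate 2 of both genotypes the Lrp8 pair stayed past the threshold (0.38, edgeR adjusted p = 0.0327), among 2.71% called higher.

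Deviations of same-numbered libraries of the 2 genotypes correlated by 0.46, 0.70 and 0.26, though wild-type replicate 3 correlated more with homozygous replicate 1 (0.37). On this ground the fit was repeated with the replicate number as a block. The block was chosen from the same counts that it tests, so its p-values rest on that pairing. The sample titles number the libraries and do not state pairs. Wild-type replicate 2 correlated by -0.61 and -0.36 with homozygous replicates 1 and 3. Whether replicates 1 and 3 are paired was not tested. The blocked fits are therefore given as a description and not as added support. Then 9 of the promoter's 28 tile pairs passed, 6 higher and 3 lower, against 16.3% and 13.5% of all tile pairs and 39.3% of pairs across the span called higher. All 6 higher pairs cross the span, at 6 of the 8 tiles there. The Lrp8 tile above rose by 0.40 (edgeR adjusted p = 2e-10). The tile on its right, 107840001-107870000, rose by 0.32 (edgeR adjusted p = 3.42e-07), and the tile on its left, 107780001-107810000, by 0.29 (edgeR adjusted p = 3.97e-06). These 3 were also the ones called higher when the missing length entered the blocked fit, with rises of 0.34, 0.28 and 0.23 (edgeR adjusted p = 3.16e-07, 2.42e-05 and 0.000633), where 7.14% of all pairs and 17.3% of those across the span were called higher. The other 3 of the 6 were 107740001-107750000, 107750001-107780000 and 107870001-107900000, with rises of 0.23, 0.17 and 0.17 (edgeR adjusted p = 0.0416, 0.0152 and 0.0236).

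The 3 lower pairs lie on the promoter's own side. They join it with its neighbours 107390001-107420000 at the end of Ndc1 (-0.12, edgeR adjusted p = 0.000102) and 107450001-107480000 in Glis1 (-0.12, edgeR adjusted p = 0.000123), and with 107660001-107690000 at Dmrtb1 (-0.14, edgeR adjusted p = 0.0416). Scaling the libraries by all contacts of the captured region of chromosome 4 shifted the median change of all tile pairs from 0.00 to 0.13, and in that blocked fit 9 promoter pairs were called higher, 8 of them across the span, and 0 lower, against 36% and 0.493% of all pairs. With library sizes from chromosome 2 the blocked fit called 8 promoter pairs higher and 0 lower, against 32.5% and 1.23%. The 3 own-side pairs were thus called lower only in fits scaled within the core. Without replicate 2 of both genotypes the blocked fit called 3 promoter pairs, of which the Lrp8 tile was the 1 higher (0.38, edgeR adjusted p = 0.0255), against 3.94% of all pairs called higher and 4.43% lower.

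At the 3′ end, on a grid with that window as a tile, 0 of 27 pairs passed in edgeR's test without a block (4 had an unadjusted p under 0.05, and DESeq2 called 1), where 1.06% of all 378 pairs, and 2.5% of those across the span, were called higher. Without replicate 2 of both genotypes the same test called 3, all across the span, where 6.61% of all pairs were called higher and 3.97% lower. They were 107740001-107770000, 107770001-107800000 and 107800001-107830000, the last in Lrp8 (0.37, 0.27 and 0.39, edgeR adjusted p = 0.00202, 0.0215 and 0.00385). Library sizes from the captured region of chromosome 4 gave 3 calls, where 10.1% of all pairs were called higher. With the block 8 passed, 5 higher and 3 lower, against 15.3% and 15.9% of all pairs and 36.2% of those across the span called higher. The largest rise was at 107740001-107770000, next to the span (0.40, edgeR adjusted p = 3.02e-10), which became 0.12 with the missing length in the fit (edgeR adjusted p = 0.045). With the missing length in the fit, the largest rise of the 3′ end was at 107830001-107860000 in Lrp8 (0.17, edgeR adjusted p = 0.0105). In the blocked fit without replicate 2 of both genotypes it was in Lrp8 as well, at 107800001-107830000 (0.39, edgeR adjusted p = 2.66e-06), next to 0.37 beside the span, where 10.6% of all pairs were called higher and 8.73% lower. The tile with the largest rise thus differed between fits at the 3′ end, and the 2 grids were not tested against each other.

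The wild-type profile of the Glis1 promoter over the 22 right bins was most like those of the Yipf1 promoter (Pearson r = 0.90), the Dio1 promoter (0.89) and the Ndc1 promoter (0.83) among protein-coding starts left of the span, with distance taken from the decay of contacts on chromosome 2. The 3′ end of Glis1 gave 0.84 and Dmrtb1 0.68. These correlations are across bins that share their capture efficiency and libraries, and the windows of Yipf1 and Dio1 overlap, so they are a description only. On that scale the homozygous minus wild-type difference was 0.26 for Glis1, 0.18 for Ndc1, 0.12 for Yipf1, 0.11 for Dio1 and 0.34 for Dmrtb1. With the missing length taken out, it was 0.21 for Glis1, 0.14 for Ndc1, 0.09 for Yipf1, 0.08 for Dio1 and 0.01 for Dmrtb1.

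Expression of Glis1 was taken from the authors' deposited table of regressions on genotype. In the authors' deposited table Glis1 has a slope of 0.0850, a t statistic of 0.455, a p of 0.663 and an FDR of 0.991. Of the 6 genes in the authors' deposited table, 0 (0%) passed an FDR of 0.05 and 1 (16.7%) had a p under 0.05. The latter was Dmrtb1, for which the authors' deposited table gives a slope of 81.6 and an FDR of 0.137. Lrp8, where the promoter's contacts changed most, has a slope of 1.25 and an FDR of 0.991 in the authors' deposited table. The unit of expression is not given in the sources used here, so the slopes were not compared in size. The samples are whole testis, in which fewer cells of a type and less RNA per cell cannot be told apart. Of 18 genes of the GLI, GLIS and ZIC families and the Hedgehog pathway other than Glis1, 0 are among the 566 genes of the authors' deposited trans table, which ends at a p of 0.00998. How many genes were tested is not given in the sources used here, so nothing is read from that count.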

How the data were processed

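Contacts came from 6 capture Hi-C libraries. The authors deposited counts per pair of 10 kb bins without normalization; pairs without a contact are not listed. The Arima kit and Agilent SureSelect were used per the labels, with mm10 per the submitters' processing notes; the aligner and read filters are not given in the sources used here. Matrices were matched to libraries by genotype and number. The authors' deposited expression tables give a t statistic as score, p-values with FDR, and slopes, per the file headers; STAR is named in the submitters' processing notes.

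RefSeq GRCm38.p6 gave genes and promoters. Observed over expected used the mean count per distance within the flanks. Single values were compared by exact permutation and against the larger SD. Tile pairs averaging 5 contacts or more entered edgeR 4.0.16 (TMM, quasi-likelihood, threshold 0.05); DESeq2 1.42.0 was an alternative. The offset for the missing length in edgeR used the decay on chromosome 2. Scripts were tested on simulated data. Same-numbered libraries' deviations over 406 tile pairs correlated by 0.46, 0.70 and 0.26, so replicate numbers were treated as pairs. However, wild-type replicate 3 correlated more with homozygous replicate 1 (0.37), and the sample titles do not state pairs. Partners named were all called tile pairs, the bins with the 5 highest and 3 lowest wild-type values, the 5 largest and 3 smallest changes, and gene starts. Members, lists and zones were chosen with earlier results of these data known. ChIP-seq was not analysed here.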

Additional observations from a re-analysis of the deposited data

How the results depend on the processing

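The promoter's share and observed over expected kept their direction and exceeded the larger SD under all alternatives run. Leaving out 1 library gave 1.88 to 2.37 points for the promoter's share and 0.23 to 0.32 for its observed over expected, against 2.57 to 3.17 points and 0.24 to 0.35 at the 3′ end. With balancing the promoter's value was 0.27, with the expectation from chromosome 2 it was 0.26, and with the window of the outermost RefSeq start it was 0.30. The 3′ end fell within its SD only when shortened by 3 bins (0.066).

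The promoter minus 3′ end difference of -0.01 ranged from -0.077 to 0.0437 without 1 library, and was -0.0798 without replicate 2 of both genotypes. It was -0.11 with only the bin of each gene end, and turned to 0.10, 0.11 and 0.16 after shortening by 2 bins, the missing length and 3 bins. It was 0.0207 after balancing, 0.17 after balancing and shortening by the missing length, and 0.0804 with chromosome 2 and that shortening. The same difference between the span and Lrp8 went from -0.13 to 0.016 and 0.074 after shortening by the missing length and 3 bins, and the 3′ end's change from Magoh on to -0.033 and -0.077. Over Lrp8 it ranged from -0.0128 to 0.0867 without 1 library and was -0.0445 without replicate 2 of both genotypes; from Magoh on it ranged from -0.0078 to 0.1697 without 1 library.

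Own-side shares were lower in all 3 same-numbered pairs in each zone, but their unpaired differences changed sign when single libraries were left out. The upstream difference ranged from -2.92 to 0.0848 points without 1 library, was -1.39 in the replicate block and -1.45 without replicate 2 of both genotypes. The gene body ranged from -1.85 to 0.859 and the stretch from the gene to the span from -0.156 to 0.0139; the latter was -0.0856 in the replicate block and -0.241 with 2 bins either side.

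The promoter had 1 called tile pair. It had 5 with library sizes from the chromosome 4 region, where 15% of all pairs were called higher and 0.246% lower. It had 0 with those from the chromosome 2 region (0.246% and 0%) and 0 of 240 pairs of 10 kb bins (0.181% and 0.0301%). With the missing length as an offset it had 0 (0% and 0.246%). The replicate block gave 9, where 16.3% of all pairs were called higher and 13.5% lower. With the offset it gave 5, of which 3 were higher (7.14% and 12.3%). Without replicate 2 of both genotypes it gave 3 (3.94% and 4.43%). Block fits with library sizes from chromosomes 4 and 2 gave 9 and 8 of 28, all higher, where 36% and 32.5% of all pairs were called higher. Without 1 library the number was 0 to 2, where 0.985% to 6.4% of all pairs were called higher and 0% to 0.985% lower. At the 3′ end, 0 became 1 with DESeq2, where 1.06% of all pairs were called higher and 0% lower. The number was 3 with chromosome 4 library sizes (10.1% and 0%) and 8 in the replicate block (15.3% and 15.9%). With block and offset it was 6 (7.14% and 14%). Without replicate 2 of both genotypes it was 3 (6.61% and 3.97%), or 5 with the block (10.6% and 8.73%). Block fits with library sizes from chromosomes 4 and 2 gave 11 and 9 of 27, all higher, where 37.6% and 32.3% of all pairs were called higher. Fewer counts per pair stand behind 10 kb bins; the cause of the other changes was not tested. The outermost-start window, the fits without both replicate 2 libraries, the shortening combined with balancing or chromosome 2, the block with other library sizes and the zones right of the span, with their libraries left out, were chosen after seeing the data.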
